A study of Mus musculus with 23 samples.

Results

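The genes described here were chosen by their place in glucose uptake and glycolysis, with earlier results of these data known. They are the glucose transporter gene Slc2a1, the hexokinase genes Hk2 and Hk3, the regulator Pfkfb3, the phosphofructokinase gene Pfkl, and the genes of the later enzymes Aldoa, Gapdh, Pgk1, Pkm and Ldha. All 10 are among the 6397 genes with an RNA and a ribosome footprint value at every time point. Another 7 glycolysis enzymes with values are not among the 10 and are counted further below. The cells were bone marrow derived macrophages (BMDMs) of C57BL/6 mice, grown for 7 days in medium with 20% L929 supplement, which carries the growth factor that turns marrow cells into macrophages. They were left untreated (0 hr) or treated with 100 ng/ml lipopolysaccharide (LPS), a component of the Gram-negative bacterial membrane, for 1, 2, 4 or 6 hr. Each of the 5 time points had 2 replicates, A and B, and each culture was divided between RNA-seq of rRNA-depleted total RNA and Ribo-seq of ribosome-protected fragments (RPFs), so that each assay had 10 libraries. The study calls the replicates biological, but whether they came from separate mice is not given in the sources used here, so p-values measure only the spread between these samples.

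Glycolysis breaks glucose down to pyruvate in the cytosol and yields ATP without oxygen. Glucose enters through transporters of the Slc2a family, is trapped by phosphorylation by hexokinases, and is committed to the pathway by phosphofructokinase, whose strongest activator is made by Pfkfb3. Lactate dehydrogenase turns pyruvate into lactate and so restores the NAD+ that Gapdh uses. Macrophages that meet LPS are known to take up more glucose and release more lactate. The hypoxia-inducible factor Hif1a is a known activator of many of these genes. It binds them at sites whose core often reads ACGTG.

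The macrophage label was checked with markers. All 9 macrophage markers (among them Adgre1, Csf1r, Cd68 and Lyz2) were present, with a summed RNA level of 11270 to 17939 RPKM per library, and at 6 hr 4 of them were called higher and 4 lower in RNA. RPKM divides the reads of a gene by its length and by the size of the library, and so allows levels of different genes to be set side by side within an assay. Of 28 markers of neutrophils, dendritic cells, T and B cells, erythroid cells and fibroblasts, 1 was among the 6397 genes, Col1a1, at 0.362 to 1.36 RPKM in RNA. The steps of low RPKM values put the reads behind the Ribo-seq scale at 550000 to 3460000 per library, with the lowest in replicate A at 6 hr. The depth of the RNA-seq libraries could not be read from the values. In these bulk samples fewer cells and less RNA per cell cannot be told apart.

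The promoters of the 5 genes below are shown because these genes either rose most or carry the most matches to ACGTG. All 10 genes matched the RefSeq promoter table (build GRCm38.p6), which gives 300 bases for each annotated start, 250 before it and 50 after it. Capitals mark ACGTG, or CACGT where the match lies on the other strand. The palindrome CACGTG, which is also an E-box, counts on both strands.
Slc2a1, chr4:119108495-119108794, plus strand: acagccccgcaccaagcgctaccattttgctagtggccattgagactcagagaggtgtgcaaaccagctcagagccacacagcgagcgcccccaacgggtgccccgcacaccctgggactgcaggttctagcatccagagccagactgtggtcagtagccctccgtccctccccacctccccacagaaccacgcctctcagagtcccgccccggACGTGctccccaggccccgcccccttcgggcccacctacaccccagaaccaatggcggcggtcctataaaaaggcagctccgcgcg
Pfkfb3, upstream start, chr2:11553880-11554179, minus strand: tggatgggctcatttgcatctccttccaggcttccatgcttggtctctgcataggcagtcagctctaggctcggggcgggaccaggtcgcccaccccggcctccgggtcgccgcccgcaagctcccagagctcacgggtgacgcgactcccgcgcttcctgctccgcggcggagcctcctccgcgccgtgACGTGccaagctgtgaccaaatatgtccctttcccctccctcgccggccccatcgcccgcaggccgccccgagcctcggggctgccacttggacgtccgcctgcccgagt
Pfkfb3, downstream start, chr2:11502041-11502340, minus strand: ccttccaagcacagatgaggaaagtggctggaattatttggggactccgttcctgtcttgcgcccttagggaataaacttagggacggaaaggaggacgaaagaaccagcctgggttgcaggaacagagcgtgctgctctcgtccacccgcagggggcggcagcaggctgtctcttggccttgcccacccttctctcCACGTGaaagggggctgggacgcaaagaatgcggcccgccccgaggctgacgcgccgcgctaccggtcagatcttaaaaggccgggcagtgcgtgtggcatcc
Hk2, chr6:82774405-82774704, minus strand: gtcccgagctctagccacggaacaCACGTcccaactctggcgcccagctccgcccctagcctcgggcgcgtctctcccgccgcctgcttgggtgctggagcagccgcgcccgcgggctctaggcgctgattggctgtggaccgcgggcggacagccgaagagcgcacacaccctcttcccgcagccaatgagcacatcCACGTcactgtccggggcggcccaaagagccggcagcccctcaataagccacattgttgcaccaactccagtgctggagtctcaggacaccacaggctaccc
Hk3, chr13:55021336-55021635, minus strand: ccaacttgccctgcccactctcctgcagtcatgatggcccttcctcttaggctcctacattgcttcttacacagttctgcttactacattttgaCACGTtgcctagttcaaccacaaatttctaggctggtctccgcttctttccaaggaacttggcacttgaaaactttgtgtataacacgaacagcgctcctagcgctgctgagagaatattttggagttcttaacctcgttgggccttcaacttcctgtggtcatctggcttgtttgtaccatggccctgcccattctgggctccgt
Ldha, chr7:46845554-46845853, plus strand: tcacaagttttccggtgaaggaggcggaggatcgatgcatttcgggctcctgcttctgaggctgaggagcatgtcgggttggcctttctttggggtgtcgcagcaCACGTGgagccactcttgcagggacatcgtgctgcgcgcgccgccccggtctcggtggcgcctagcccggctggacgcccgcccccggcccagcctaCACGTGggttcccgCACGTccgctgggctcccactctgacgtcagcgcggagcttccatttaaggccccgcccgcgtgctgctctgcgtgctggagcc

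ACGTG was found on either strand in 11 of the 15 promoter windows of the 10 genes, of which a pair of overlapping Aldoa windows share a match, and in 19.6% of all 32851 windows. Counted by gene, 9 of the 10 genes had a match in at least 1 window, beside 21.8% of 27025 genes. The exception was Pfkl. The 27025 are all genes with a promoter window and were not limited to the 6397 with values here. No set matched for base content or number of windows was compared. The Slc2a1 match began at base -36 from the transcript start, those of Pfkfb3 at -60 upstream and at -53 and -52 downstream, and those of Ldha at -145, -144, -48, -47 and -34. With a match in 9 of the 10 genes, ACGTG could not separate them by their RNA response described below, whatever that response was. Whether the matches bear on the RNA changes was not tested. Aldoa, Gapdh, Pgk1, Pkm and Ldha carry matches too, while Pfkl, which rose, has no ACGTG in this window. Only ACGTG was searched, so sites with other letters, such as the GCGTG in the Pfkl window, were not counted. A match is a stretch of letters, and binding was not measured.

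The pathway was uneven in resting cells. At 0 hr the RNA level was highest for Pkm, at 861 and 759 RPKM in replicates A and B, and its range overlapped that of Aldoa, at 782 and 576 RPKM. Ldha followed at 389 and 319 RPKM, Gapdh at 267 and 160 RPKM and Pgk1 at 156 and 122 RPKM. The genes of uptake and of the early steps lay below these, with Hk3 at 44.5 and 44.1 RPKM and Pfkl at 33.9 and 29.7 RPKM. Slc2a1 stood at 21.4 and 19.9 RPKM, Hk2 at 6.85 and 6.28 RPKM and Pfkfb3 at 3.40 and 3.36 RPKM, and from Aldoa downwards no neighbours in this order overlapped. The 5 later enzymes held 95.7% and 94.9% of the summed RNA RPKM of the 10 genes at 0 hr. At 6 hr they held 78.1% and 73.9%, and of the footprints 69.0% and 67.5%. Together the 10 genes took 0.401% to 0.588% of the summed RNA RPKM per library.

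**Figure D1:**
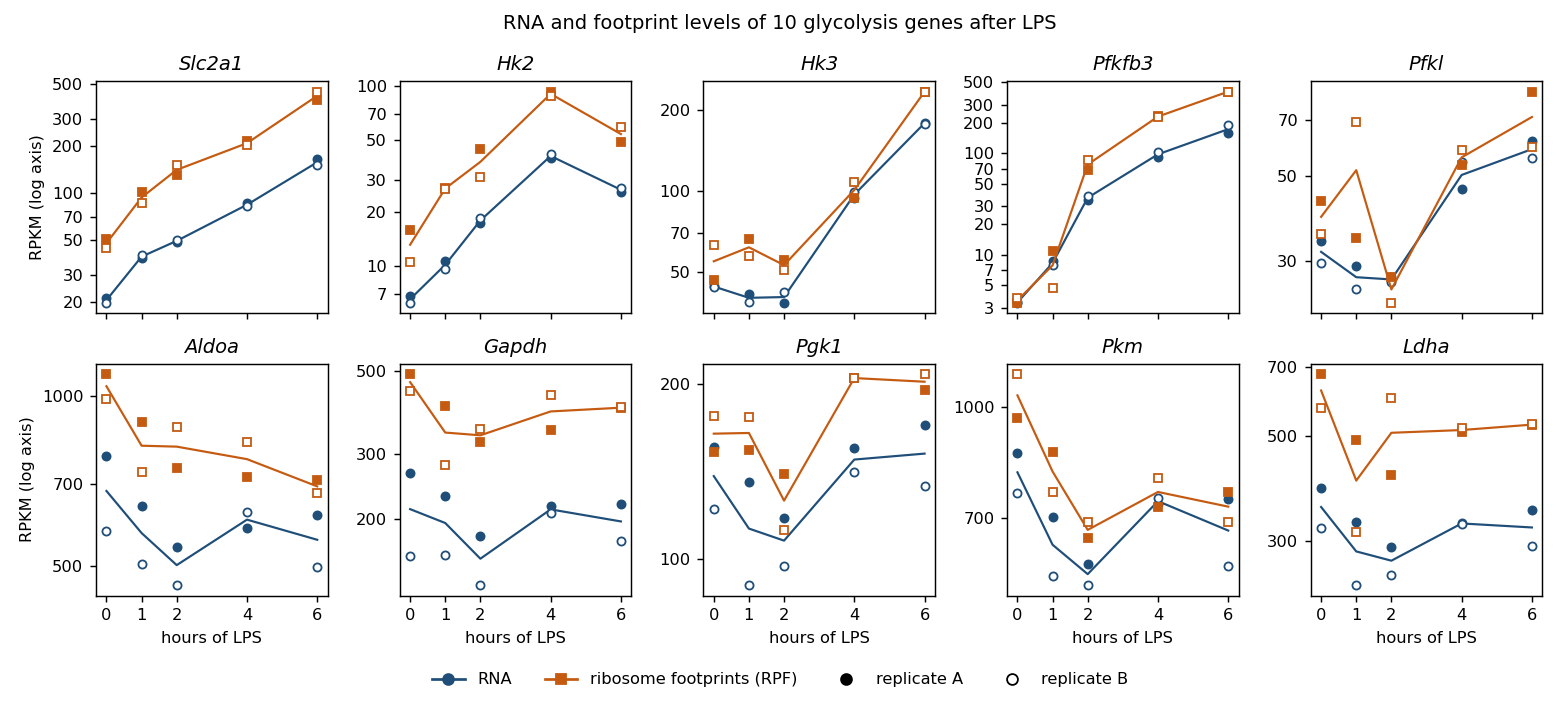
RPKM of RNA (circles) and ribosome footprints (squares) for each of the 10 genes over the 6 hr of LPS, on log axes with a range of their own in each panel; filled symbols are replicate A, open symbols replicate B, and lines join the means (n = 2). Pfkfb3 RNA climbs from 3.40 and 3.36 to 157 and 187 RPKM, Hk2 peaks at 4 hr, and RNA of the 5 later enzymes in the lower row moves less. Ldha footprints go from 676 and 572 RPKM at 0 hr to 491 and 314 at 1 hr.

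Changes against 0 hr were tested with limma on log2(RPKM + 1), a scale that understates the change of low genes. The threshold was an adjusted p of 0.05 (Benjamini-Hochberg over all tested genes). There were 4805 tested genes in RNA, and all 10 genes of the pathway passed the filter of a mean of 10 RPKM. In RNA, 3 of the 10 genes rose at 1 hr, 3 at 2 hr, 5 at 4 hr and 5 at 6 hr, whereas 7.72%, 15.7%, 24.3% and 26.1% of all tested genes were called higher. By limma 2 of the 10 were called lower at 2 hr, and 0 at 1, 4 and 6 hr. At those other times 1, 0 and 0 were below 0 at an unadjusted p under 0.05. Of all tested genes, 9.12%, 37.7%, 51.7% and 54.9% were called lower at 1, 2, 4 and 6 hr. With the replicate letter added to the model, 3, 5, 0 and 2 of the 10 were called lower, beside 846, 2112, 2588 and 2707 of all 4805 genes. The median log2 change of the 10 genes was -0.17, -0.29, 0.37 and 0.50 at these times, and that of all tested genes was -0.15, -0.22, -0.33 and -0.41. After centring every library on its own median, the 3, 3, 5 and 5 higher calls stood. The number of all genes called lower, 438 at 1 hr, was 189 without replicate A at 0 hr and 114 without replicate B at 1 hr, and at 2 hr it went from 1813 to 1042 without replicate A at 2 hr.

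In RPFs, tested over 5277 genes, 1, 3, 4 and 4 of the 10 genes rose at 1, 2, 4 and 6 hr, beside 2.94%, 5.65%, 11.7% and 12.8% of all tested genes. By limma 0 were called lower at 1 hr (4 below 0 at an unadjusted p under 0.05), 1 at 2 hr, 1 at 4 hr and 2 at 6 hr, beside 0.322%, 4.85%, 23.5% and 36% of all tested genes. These counts of all genes depended on single libraries. At 1 hr, leaving out replicate A of that time moved the lower calls from 17 to 612 and the higher calls from 155 to 265, while leaving out replicate B of that time or either 0 or 4 hr library gave 4 to 10 lower calls. At 2 hr the lower calls, 256, were 43 and 57 without replicate A or B at 0 hr, 442 and 439 without those at 1 hr, 122 and 123 without those at 4 hr, and 109 without replicate A at 2 hr. At 4 hr, 1241 became 594 and 734 without the 0 hr libraries and 531 and 603 without the 4 hr libraries, and at 6 hr 1902 became 1149 without replicate A at 0 hr. The median RPF change of the 10 genes was 0.09, -0.34, 0.41 and 0.57, and that of all tested genes -0.18, -0.32, -0.50 and -0.66. After median centring, the split of all RPF calls moved from 298 higher and 256 lower to 375 and 106 at 2 hr, from 617 and 1241 to 788 and 685 at 4 hr, and from 675 and 1902 to 1004 and 945 at 6 hr, and 5 and 6 of the 10 genes were called higher at 4 and 6 hr. RNA and RPF changes at the different times share the 0 hr libraries.

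**Figure D2:**
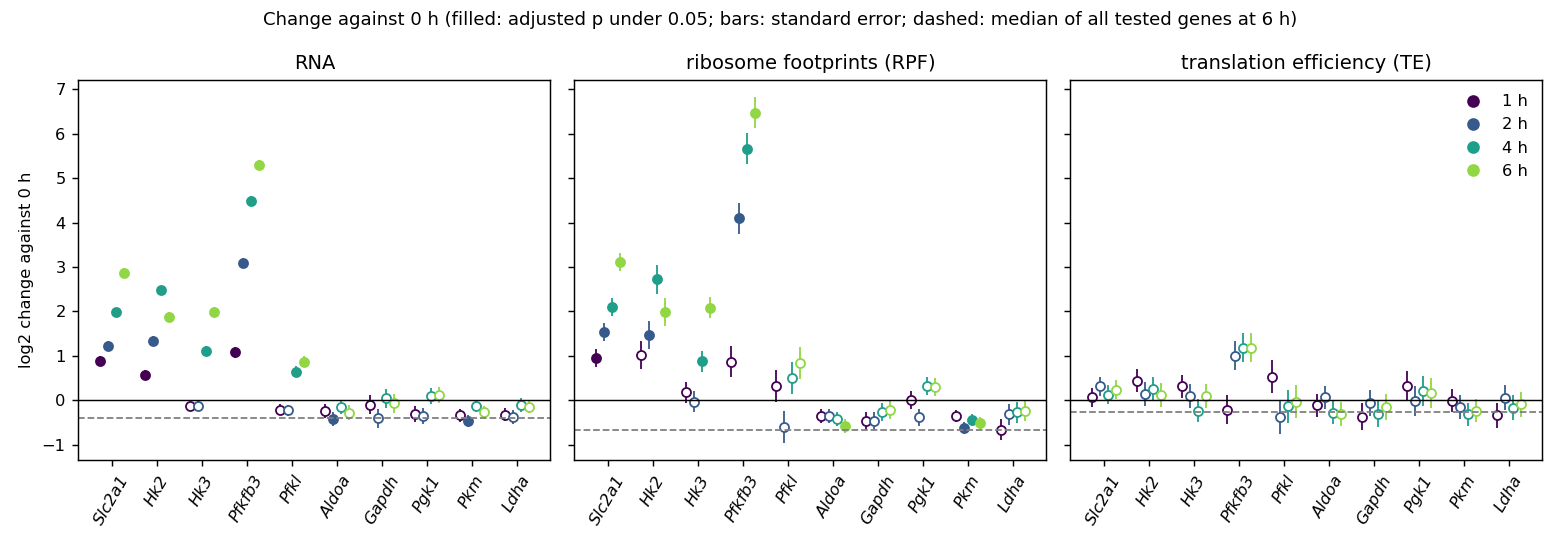
Log2 change against 0 hr (vertical axis) of the 10 genes in RNA, ribosome footprints and translation efficiency at 1, 2, 4 and 6 hr; bars are standard errors of the limma fit (n = 2 per time point), filled points have an adjusted p under 0.05, and the dashed line is the median of all tested genes at 6 hr. In RNA the filled points above 0 belong to Slc2a1, Hk2, Hk3, Pfkfb3 and Pfkl, and no point in the panel of translation efficiency is filled.

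Slc2a1, the basal glucose transporter of most cells, rose in RNA at every step. Its RNA stood at 21.4 and 19.9 RPKM in replicates A and B at 0 hr, 38.3 and 40.1 at 1 hr, 49.0 and 49.9 at 2 hr, 86.3 and 82.1 at 4 hr, and 165 and 151 at 6 hr. No replicate of a later time overlapped an earlier one. The log2 change against 0 hr was 0.89 ± 0.11 (SE) at 1 hr (limma adjusted p = 1.08e-05) and 2.87 ± 0.11 at 6 hr (adjusted p = 9.09e-13). Slc2a1 was also called between neighbouring times in RNA, with 0.33 from 1 to 2 hr (adjusted p = 0.0354), 0.76 from 2 to 4 hr and 0.90 from 4 to 6 hr. Footprints of Slc2a1 went from 51.1 and 44.4 RPKM at 0 hr through 101 and 86.5, 131 and 151, and 214 and 203 to 393 and 447 RPKM at 6 hr. Here too each time stood above the one before in both replicates. The RPF change was 3.11 ± 0.20 at 6 hr (adjusted p = 1.86e-06), on about 97 and 153 footprint reads at 0 hr. At 1 hr it was 0.96 ± 0.20 (adjusted p = 0.0261), a call that was lost without either 0 hr library (adjusted p = 0.0753 without A and 0.188 without B), without either 4 hr library (0.0763 and 0.0756) without replicate B at 6 hr (0.0506), without the trend (0.0811) and with library weights (0.0834).

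Pfkfb3, a kinase and phosphatase that sets the level of the activator of phosphofructokinase, rose from the lowest level of the 10 genes. Its RNA was at 3.40 and 3.36 RPKM at 0 hr, 8.55 and 7.93 at 1 hr, 34.5 and 38.1 at 2 hr, 92.0 and 102 at 4 hr, and 157 and 187 at 6 hr. The replicates lay close together and each time was above the one before. The log2 change was 1.08 ± 0.12 at 1 hr, 3.09 ± 0.12 at 2 hr, 4.49 ± 0.12 at 4 hr and 5.30 ± 0.12 at 6 hr (limma adjusted p = 1.89e-15 at 6 hr), and the ratio of mean RPKM at 6 hr to that at 0 hr was 51.0. Pfkfb3 footprints stood at 3.36 and 3.72 RPKM at 0 hr, 10.9 and 4.71 at 1 hr, 68.3 and 86.0 at 2 hr, 231 and 227 at 4 hr, and 404 and 403 at 6 hr. The 1 hr replicates were far apart and the 2, 4 and 6 hr values lay above all of them. RPFs were not called at 1 hr (0.86 ± 0.35, adjusted p = 0.29, or 1.40 with adjusted p = 0.0236 without replicate B at 1 hr) and rose by 4.10 ± 0.35 at 2 hr, 5.66 ± 0.35 at 4 hr and 6.48 ± 0.35 at 6 hr (adjusted p = 4.92e-07). The 0 hr footprint values rest on about 7 and 15 reads, a rough count because the coding length was taken over 8 annotated mRNAs, so the size of the RPF rise is set by very few reads.

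The hexokinase genes followed different courses. Hk2, the inducible hexokinase that can bind mitochondria, peaked at 4 hr. Its RNA went from 6.85 and 6.28 RPKM at 0 hr to 10.7 and 9.68 at 1 hr, 17.4 and 18.6 at 2 hr and 39.8 and 42.1 at 4 hr, and stood at 25.9 and 27.3 at 6 hr. The 4 hr replicates were above and clear of all others. The log2 change was 2.47 ± 0.11 at 4 hr (limma adjusted p = 1.06e-11) and 1.87 ± 0.11 at 6 hr, and from 4 to 6 hr Hk2 RNA fell by 0.60 on the log2 scale (adjusted p = 0.000465). Footprints of Hk2 had the same peak, with 15.8 and 10.5 RPKM at 0 hr, 27.3 and 26.7 at 1 hr, 44.6 and 31.5 at 2 hr, 93.4 and 88.0 at 4 hr and 49.1 and 59.4 at 6 hr. The Hk2 RPF change was 2.72 ± 0.32 at 4 hr (adjusted p = 0.000134), while the difference of -0.74 ± 0.32 from 4 to 6 hr did not pass the test (adjusted p = 0.229). The RPF call of Hk2 at 2 hr, 1.47 ± 0.32 (adjusted p = 0.0162), was lost without replicate B at 0 hr (adjusted p = 0.109) or replicate A at 2 hr (0.0958).

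Hk3, a hexokinase found mainly in myeloid cells, moved late. Hk3 RNA was at 44.5 and 44.1 RPKM at 0 hr, 41.7 and 38.8 at 1 hr, 38.6 and 42.4 at 2 hr, 94.7 and 99.9 at 4 hr, and 180 and 178 at 6 hr. At 1 and 2 hr the replicates lay slightly below those at 0 hr, and at 4 and 6 hr they were clear above. The log2 change was -0.14 ± 0.11 at 1 hr (limma adjusted p = 0.362, 95% interval -0.36 to 0.09), 1.12 ± 0.11 at 4 hr and 1.99 ± 0.11 at 6 hr (adjusted p = 7.37e-11). Hk3 footprints stood at 47.0 and 63.0 RPKM at 0 hr, 66.6 and 57.4 at 1 hr, 55.4 and 51.1 at 2 hr, 94.3 and 108 at 4 hr and 235 and 234 at 6 hr. The RPFs of the early times overlapped those of 0 hr. RPFs rose by 2.09 ± 0.23 at 6 hr (adjusted p = 7.71e-05), and by 0.88 ± 0.23 at 4 hr (adjusted p = 0.0161), a call lost without replicate A at 0 hr (0.117) or without either 4 hr library (0.0679 and 0.125).

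Pfkl, the liver-type phosphofructokinase, rose least of the genes called in RNA. Its RNA stood at 33.9 and 29.7 RPKM at 0 hr, 29.1 and 25.5 at 1 hr, 27.3 and 26.6 at 2 hr, 46.3 and 54.3 at 4 hr and 61.8 and 55.7 at 6 hr. The values dipped slightly below those at 0 hr before they rose clear of them at 4 hr. The log2 change was 0.65 ± 0.12 at 4 hr (limma adjusted p = 0.000183) and 0.87 ± 0.12 at 6 hr (adjusted p = 7.58e-06). Pfkl footprints were at 43.0 and 35.3 RPKM at 0 hr, 34.5 and 69.1 at 1 hr, 27.3 and 23.5 at 2 hr, 53.6 and 58.3 at 4 hr and 82.9 and 59.5 at 6 hr. Replicate B at 1 hr stood far from replicate A. The RPF change of 0.83 ± 0.36 at 6 hr missed the threshold (adjusted p = 0.0761, 95% interval 0.04 to 1.63) and passed it without either 1 hr library (0.0236 and 0.0254), with library weights (0.0374) or after median centring (1.35, adjusted p = 0.0147).

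Between neighbouring times, 3 of the 10 genes rose in RNA from 1 to 2 hr (12.2% of all tested genes), 7 from 2 to 4 hr (23.2%) and 3 from 4 to 6 hr (14.5%), and 1, Hk2, fell from 4 to 6 hr (26.5%). The 7 genes that rose from 2 to 4 hr include Pgk1, by 0.46 ± 0.18 (limma adjusted p = 0.0386), and Pkm, by 0.34 ± 0.14 (adjusted p = 0.049). All 10 genes had a change above 0 in that interval, while the median of all tested genes was -0.12. In RPFs 1 of the 10 rose from 1 to 2 hr (2.98% of all tested genes), 4 from 2 to 4 hr (8%) and 2 from 4 to 6 hr (1.36%), the last being Slc2a1 and Hk3.

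The later enzymes had small changes in RNA. Aldolase A (Aldoa) splits the phosphorylated sugar, Gapdh and Pgk1 carry out the oxidation and the ATP-forming step that follow, pyruvate kinase (Pkm) makes pyruvate, and Ldha makes lactate. At 6 hr none of these 5 genes was called in RNA. Aldoa RNA was at 782 and 576 RPKM at 0 hr, 639 and 506 at 1 hr, 542 and 463 at 2 hr, 584 and 625 at 4 hr, and 616 and 498 at 6 hr. Gapdh RNA was at 267 and 160 RPKM at 0 hr, 231 and 160 at 1 hr, 181 and 133 at 2 hr, 217 and 208 at 4 hr, and 220 and 175 at 6 hr. Replicates of both genes at 6 hr overlapped those at 0 hr. The 6 hr change of Gapdh was -0.07 ± 0.22 on the log2 scale (limma adjusted p = 0.769, 95% interval -0.54 to 0.39), that of Aldoa -0.28 ± 0.17 (adjusted p = 0.134), that of Pgk1 0.13 ± 0.18 (0.523) and that of Ldha -0.14 ± 0.15 (0.402). With median centring Gapdh and Ldha turned to 0.15 and 0.08. With the replicate letter added to the model, Aldoa (limma adjusted p = 0.0355) and Pkm (0.0289) were called lower at 6 hr. Aldoa was called lower at 6 hr without replicate B at 0 hr (-0.50, adjusted p = 0.0165), and Pkm, at -0.28 ± 0.14 (0.0806), without replicate A at 6 hr (-0.43, 0.031).

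Ldha RNA stood at 389 and 319 RPKM at 0 hr, 328 and 242 at 1 hr, 291 and 254 at 2 hr, 328 and 326 at 4 hr, and 348 and 293 at 6 hr. Pgk1 RNA stood at 156 and 122 RPKM at 0 hr, 136 and 90.3 at 1 hr, 118 and 97.6 at 2 hr, 156 and 141 at 4 hr, and 171 and 134 at 6 hr. Pkm RNA stood at 861 and 759 RPKM at 0 hr, 702 and 581 at 1 hr, 604 and 563 at 2 hr, 731 and 745 at 4 hr, and 743 and 600 at 6 hr. In each of these 3 genes both replicates at 2 hr lay below both at 0 hr. At that time 37.7% of all tested genes were called lower in RNA, and the median change of all tested genes was -0.22. Pkm was called lower in RNA at 2 hr (-0.47 ± 0.14, limma adjusted p = 0.0114) and so was Aldoa (-0.42 ± 0.17, adjusted p = 0.0431). The other 3 genes at 2 hr had changes of -0.36 to -0.41 that missed the threshold. Ldha (adjusted p = 0.0527) was called with no filter (0.0485) or without the trend (0.0499). With the replicate letter added to the model, Gapdh (0.00559), Pgk1 (0.00746) and Ldha (0.00635) were all called lower at 2 hr. The Pkm call was lost without replicate A at 0 hr (0.0755) or replicate B at 2 hr (0.0688). The Aldoa call was lost without 1 of 5 libraries in turn (replicate A at 0 hr and both replicates at 2 and at 4 hr), with adjusted p from 0.0503 to 0.369, with median centring (0.12), with library weights (0.0521) and with a stricter filter (0.0503). Without replicate B at 0 hr, Gapdh (adjusted p = 0.00659), Pgk1 (0.0403) and Ldha (0.0253) were called lower at 2 hr as well, and Ldha also without either 1 hr library (0.0362 and 0.0366). At 1 hr Pgk1 (0.0437) and Ldha (0.0485) were called lower without replicate A at 1 hr.

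In RPFs Pkm went from 964 and 1111 RPKM at 0 hr to 865 and 759 at 1 hr, 656 and 690 at 2 hr, 725 and 796 at 4 hr and 761 and 689 at 6 hr. Aldoa footprints went from 1092 and 986 RPKM at 0 hr to 710 and 673 at 6 hr. Both genes were called lower at 6 hr, Pkm by -0.51 ± 0.14 (limma adjusted p = 0.0125) and Aldoa by -0.58 ± 0.15 (adjusted p = 0.0109), against a median of -0.66 over all tested genes. After median centring these changes were 0.003 for Pkm, which thereby turned its sign, and -0.07 for Aldoa, and neither was called, nor was either without the trend (0.0838 and 0.0672). Leaving out replicate B at 0 hr (adjusted p = 0.0872) or at 6 hr (0.081) also ended the Pkm call, and leaving out replicate A at 0 hr (0.0736) or B at 6 hr (0.061) that of Aldoa. The RPF calls of Pkm at 2 hr (-0.62 ± 0.14, adjusted p = 0.0196) and at 4 hr (-0.45 ± 0.14, adjusted p = 0.0319) were likewise lost with centring (0.0981 and 0.539), without the trend (0.123 and 0.148), without replicate B at 0 hr (0.127 and 0.171), without replicate A at 2 hr for the former (0.0804), and without either 4 hr library for the latter (0.201 and 0.0891). Aldoa RPFs at 4 hr, -0.43 ± 0.15 (adjusted p = 0.0538), passed the threshold without any 1 of the 1 hr and 2 hr libraries (0.0342 to 0.0476), with library weights (0.0104) and with a stricter filter (0.0479).

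Footprints of Gapdh stood at 490 and 442 RPKM at 0 hr and 396 and 400 at 6 hr, and those of Ldha at 676 and 572 and at 528 and 529. At 1 hr they stood lower, Gapdh at 404 and 280 and Ldha at 491 and 314 RPKM. These 1 hr changes, -0.47 ± 0.20 for Gapdh and -0.66 ± 0.23 for Ldha, missed the threshold (limma adjusted p = 0.307 and 0.236). Pgk1 footprints stood at 153 and 176 RPKM at 0 hr and at 196 and 208 at 6 hr. The 3 RPF changes at 6 hr, -0.22, -0.23 and 0.30, missed the threshold. With median centring Pgk1 passed it (0.81, limma adjusted p = 0.0127), and Gapdh and Ldha turned to 0.29 and 0.28. Without replicate A at 1 hr, Gapdh (-0.73, adjusted p = 0.0284) and Ldha (-0.98, 0.0173) were called lower at 1 hr. The mouse genome holds near-identical copies of Gapdh and of several other abundant glycolysis genes, and reads that could belong to a copy may have been lost in counting, so the levels of these genes are uncertain.

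The RNA values of the later enzymes differed between the replicate letters. For Aldoa, Gapdh, Pgk1, Pkm and Ldha replicate A was above replicate B in 23 of 25 pairs of libraries of the same time point. Gapdh, Pgk1 and Ldha were higher in A at 5 of 5 times, as were 4.91% of all 4805 tested genes, with a median difference of 0.43, 0.35 and 0.25 on the log2 scale. The same was not seen in RPFs, where these 3 genes were higher in A at 2 of 5 times. Pfkfb3 and Hk2 RNA were higher in A at 2 of 5 times.

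Translation efficiency (apparent TE), the RPF level over the RNA level of the same culture, gave no call among the 10 genes. The Slc2a1 TE was 2.39 and 2.23 at 0 hr and 2.39 and 2.96 at 6 hr, the Hk3 TE 1.05 and 1.43 at 0 hr and 1.30 and 1.31 at 6 hr, and the Gapdh TE 1.84 and 2.77 at 0 hr and 1.80 and 2.28 at 6 hr. In each of these 3 genes the 6 hr values overlapped those at 0 hr. Aldoa TE, at 1.40 and 1.71 at 0 hr and 1.15 and 1.35 at 6 hr, did not overlap. At 4 hr Aldoa, Pfkl, Pkm and Ldha lay below their 0 hr TE in both cultures, and Slc2a1 and Pfkfb3 above. How many of all genes were separated in this way was not counted. Leaving out Pfkfb3, TE changes of the 10 genes at 6 hr ran from -0.31 (Aldoa) to 0.24 (Slc2a1) on the log2 scale, with standard errors of 0.21 to 0.38. No gene of the 4621 tested was called in TE at 1, 2, 4 or 6 hr against 0 hr (limma, 0%), with 305, 317, 339 and 558 at an unadjusted p under 0.05, and the number of the 10 genes at an unadjusted p under 0.05 was 0, 1, 1 and 1. This count of 0 over all genes rested on the libraries used: at 1 hr it became 50 higher and 244 lower without replicate A at 1 hr and 2 higher without replicate B at 0 hr, and at 2 hr 2 lower without replicate B at 2 hr. The joint model of both assays called 1 gene higher and 2 lower at 1 hr, and 1 higher and 3 lower at 6 hr. None of the 10 genes was called in TE in any of these fits.

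The gene of the 10 at an unadjusted p under 0.05 in TE at 2, 4 and 6 hr was Pfkfb3. Its TE was 0.988 and 1.11 at 0 hr, 1.28 and 0.594 at 1 hr, 1.98 and 2.26 at 2 hr, 2.51 and 2.22 at 4 hr, and 2.57 and 2.15 at 6 hr. At 2, 4 and 6 hr both cultures stood above both at 0 hr, and the 1 hr cultures lay on either side. The log2 change was 1.18 ± 0.33 at 6 hr (limma, unadjusted p = 0.00611, adjusted p = 0.292, 95% interval 0.43 to 1.92) and 1.18 ± 0.33 at 4 hr (adjusted p = 0.658), so neither passed the test. A single model over the libraries of both assays gave the same change at 6 hr with an adjusted p of 0.162, and over all alternatives it ran from 0.144 to 0.62. As with its footprints, the 0 hr values rest on about 7 and 15 reads.

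**Figure D3:**
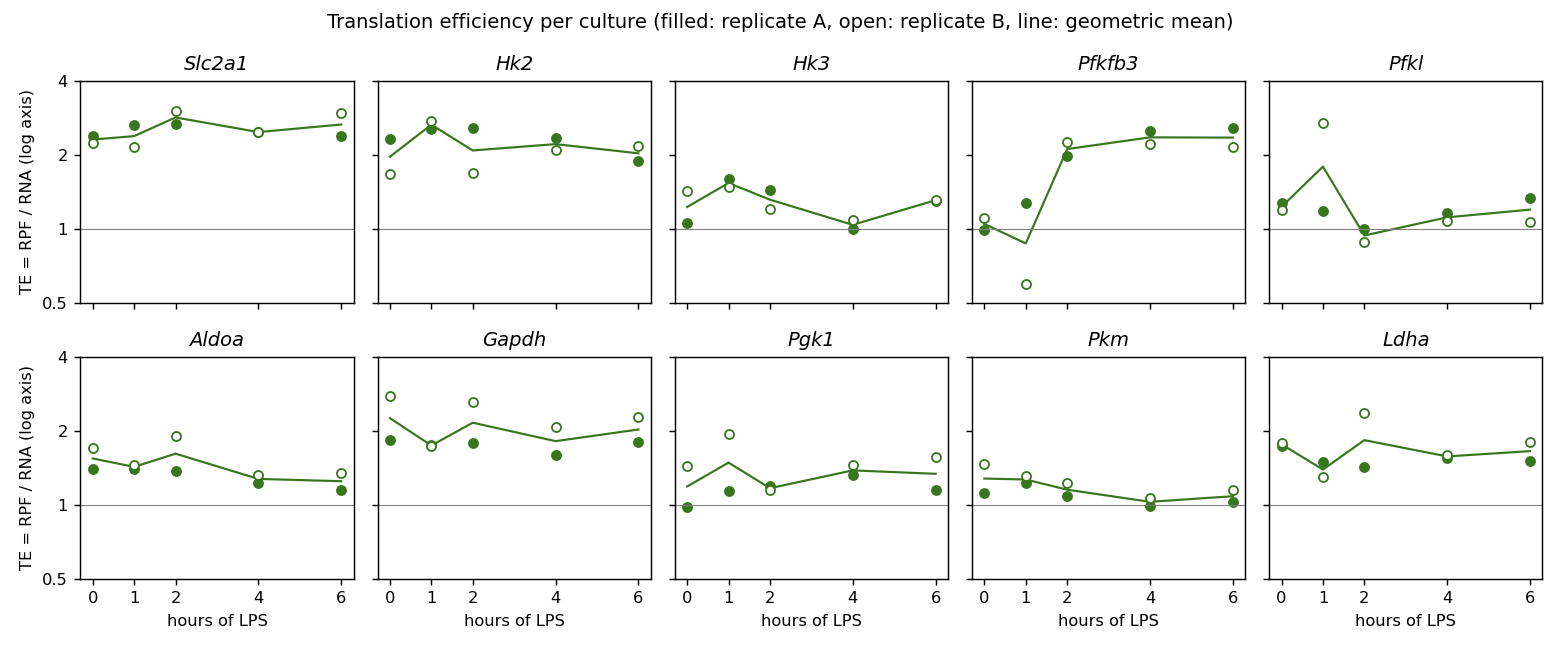
Apparent TE (RPF RPKM over RNA RPKM, log axis) of each of the 10 genes in each culture over the 6 hr of LPS; filled points are replicate A, open points replicate B, the line joins geometric means (n = 2), and the grey line marks a TE of 1. Pfkfb3 stands at 0.988 and 1.11 at 0 hr and at 2.57 and 2.15 at 6 hr, and Pfkl replicate B at 1 hr lies apart at 2.71.

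The isozymes of these genes were set beside them as shares of summed RPKM within a library. Among glucose transporters, Slc2a6 overtook Slc2a1. Slc2a6, a transporter of the same family that sits mainly on lysosomes, went from 11.6 and 11.5 RPKM in RNA at 0 hr to 49.5 and 59.6 at 1 hr, 142 and 163 at 2 hr, 452 and 405 at 4 hr and 617 and 542 at 6 hr. Each time stood above the one before. Its log2 change at 6 hr was 5.52 ± 0.13 in RNA (limma adjusted p = 2.5e-15) and 5.36 ± 0.22 in RPFs (adjusted p = 6.8e-08). Slc2a1 thus held 44.4% and 46.9% of the RNA of Slc2a1, Slc2a6 and Slc2a8 at 0 hr and 21.0% and 21.6% at 6 hr, although its own RNA had risen. In RPFs the Slc2a1 share was 51.2% and 50.7% at 0 hr and 28.2% and 32.0% at 6 hr, since Slc2a6 footprints reached 991 and 943 RPKM. Slc2a8 went the other way, from a mean of 13.1 to 3.09 RPKM in RNA.

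The hexokinase RNA pool (Hk1, Hk2 and Hk3) summed to 69.8 and 70.7 RPKM at 0 hr, 77.2 and 83.2 at 2 hr, 172 and 184 at 4 hr and 258 and 258 at 6 hr. The pool thus grew mainly after 2 hr. Hk3 was its largest part at every time, with 63.8% and 62.4% at 0 hr, a mean of 50.5% at 2 hr and 69.9% and 69.1% at 6 hr. The Hk2 share was 9.82% and 8.89% at 0 hr, 23.1% and 22.9% at 4 hr and 10.0% and 10.6% at 6 hr. In footprints the Hk2 share at 4 hr was larger, at 38.5% and 34.2%, close to the 38.9% and 42.1% of Hk3. Hk1, the broadly expressed hexokinase, also rose in RNA at 6 hr, by 1.38 ± 0.11 (limma adjusted p = 8.23e-09).

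The phosphofructokinase pool changed its leading isozyme. Pfkl held 62.5% and 58.5% of the RNA of Pfkl and Pfkp at 0 hr and 42.1% and 38.4% at 6 hr, with Pfkp above it from 2 hr on. Pfkp, the platelet-type enzyme, rose from 20.3 and 21.0 to 85.1 and 89.2 RPKM in RNA, a log2 change of 2.02 ± 0.12 (limma adjusted p = 1.93e-10), against 0.87 for Pfkl. The Pfkl share of footprints moved from 58.2% and 50.9% to 41.1% and 35.5%. Of the 2 PFKFB genes in the table, Pfkfb4 led at 0 hr with 8.22 and 8.40 RPKM in RNA and stood at 3.42 and 3.50 RPKM at 6 hr, where Pfkfb3 held 97.9% and 98.2% of their sum. Pfkfb4 was below the filter for the RNA test.

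**Figure D4:**
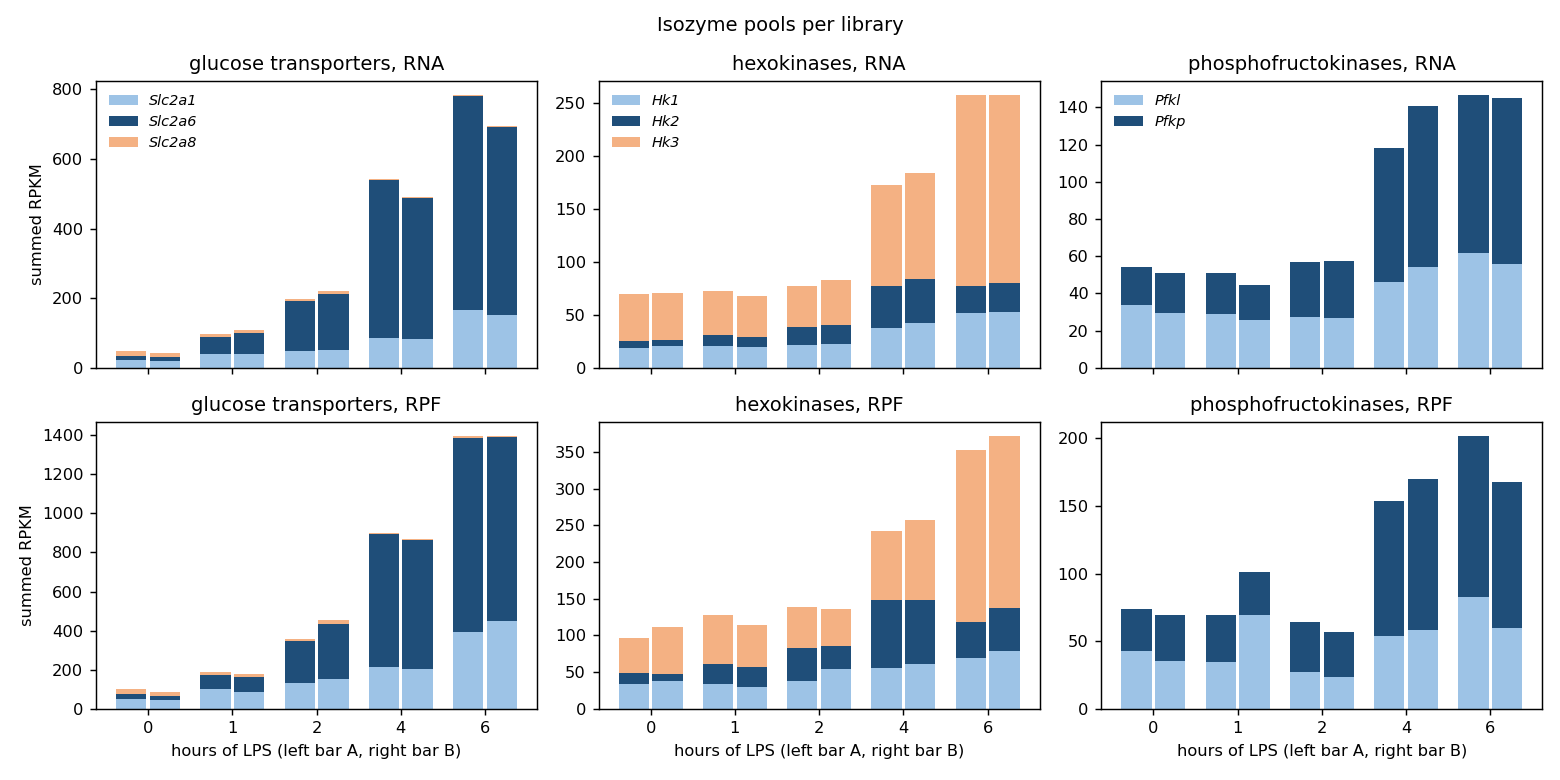
Summed RPKM (bar height, from 0) of glucose transporters, hexokinases and phosphofructokinases in RNA (top) and ribosome footprints (bottom) in each library, replicate A left and B right at each hour of LPS, divided by gene. Slc2a6 and Hk3 hold the largest parts of their RNA pools at 6 hr, at 78.6% and 77.9% and at 69.9% and 69.1%, and Pfkp takes over from Pfkl.

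The rest of the pathway was counted from lists of named enzymes. Of 7 other tested glycolysis enzymes, 2 rose (Pfkp and Hk1) and 3 fell in RNA at 6 hr, with a list median of -0.22 on the log2 scale, and these shares are near the 26.1% and 54.9% of all tested genes called higher and lower. The 3 that fell were Adpgk, an ADP-dependent glucokinase (-1.53 ± 0.12, limma adjusted p = 1.3e-08), Gpi1, which makes fructose phosphate (-0.72 ± 0.13), and Aldoc, an isozyme of Aldoa (-0.65 ± 0.11). Of 4 other tested glucose and lactate transporters 2 rose in RNA at 6 hr, Slc2a6 and Slc16a3. The latter, a lactate exporter, went from 44.3 and 38.4 to 128 and 114 RPKM (1.52 ± 0.12, adjusted p = 6.06e-09). Slc2a8 and Slc16a7, below the filter of the RNA test, went from means of 13.1 and 12.8 to 3.09 and 3.18 RPKM. In RPFs 2 of 6 such transporters were called higher and 2 lower at 6 hr, beside 12.8% and 36% of all tested genes. Both regulators that could be tested fell. Pdk1, a kinase that inhibits pyruvate dehydrogenase, changed by -1.08 ± 0.12 at 6 hr (adjusted p = 7.18e-07), and Txnip, which removes Slc2a1 from the cell surface, by -0.67 ± 0.13 (adjusted p = 0.000225).

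Txnip had the earliest change of these regulators. Its RNA was at 80.4 and 105 RPKM at 0 hr, 4.38 and 4.31 at 1 hr, 16.8 and 17.5 at 2 hr, 47.0 and 56.5 at 4 hr, and 56.7 and 58.2 at 6 hr. Txnip was thus lowest at 1 hr and then came back part of the way. Its RNA change at 1 hr was -4.12 ± 0.13 (limma adjusted p = 6.07e-13). Its footprints were at 8.95 and 0.494 RPKM at 1 hr against 236 and 261 at 0 hr, a log2 change of -6.01 ± 0.67 (adjusted p = 0.000303). The 0.494 RPKM of replicate B lies below the 1 RPKM added before the log, so the size of this footprint change is uncertain.

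Genes of the branches around glycolysis were counted in the same way. Of 17 tested genes of the TCA cycle, which oxidises acetyl-CoA in mitochondria, 9 fell and 0 rose in RNA at 6 hr by limma (0 above 0 also at an unadjusted p under 0.05), with a median of -0.52, and among those that fell were Idh2 (-1.17), Fh1, Idh3a (-0.82) and Idh3g (-0.78). Of 7 pentose phosphate genes, whose pathway makes NADPH and ribose, 2 rose and 4 fell, the latter being Pgls (-1.27), Taldo1, H6pd (-0.88) and Tkt (-0.45). Of 6 genes of pyruvate entry into mitochondria, 1 rose, Dld (0.61), and 2 fell, the pyruvate carrier Mpc2 (-0.95) and Pdha1 (-0.61). Of 5 genes of glycogen metabolism, 1 rose, Pgm2 (0.89), and 3 fell, Pygb (-0.84), Pygl (-0.68) and Ugp2 (-0.65). Over all tested genes 26.1% were called higher and 54.9% lower at 6 hr, so the falling shares of these lists lie around that of all genes.

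In the list of the hypoxia-inducible factor pathway, 2 of 3 tested genes rose in RNA at 6 hr, beside 26.1% of all tested genes. The list names 12 genes, of which 6 had values. Hif1a, the inducible subunit, was at 32.6 and 35.8 RPKM at 0 hr, 40.5 and 39.7 at 1 hr, 58.8 and 59.4 at 2 hr, 67.3 and 73.7 at 4 hr and 69.3 and 81.4 at 6 hr. All later replicates were above those at 0 hr. Its change at 6 hr was 1.11 ± 0.11 (limma adjusted p = 2.06e-07), and Ero1l, an oxidase of the endoplasmic reticulum, changed by 0.37 ± 0.11 (adjusted p = 0.00517). In RPFs at 6 hr, 1 of 4 tested genes of this list was called higher and 1 lower, with a median of 0.06. Of all tested genes, 12.8% were called higher and 36% lower there.

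Among the 4805 genes tested in RNA, those whose log2(RPKM + 1) over the 10 libraries was most like that of Slc2a1 were Il1rn (Pearson r = 0.991), Slc15a3 (0.986) and Samsn1 (0.986). For Pfkfb3 they were Mmp14 (0.998), Gsap (0.997) and Lacc1 (0.996), and for Hk3 Pilra (0.999), Slamf9 (0.996) and Lyn (0.995). These values describe a time course in which many genes rise, and the libraries are shared by all genes. The genes most like Pfkfb3 differ from it in size, with a 6 hr change of 6.58 for Mmp14 and 1.79 for Gsap against 5.30.

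Zfp36 is an RNA-binding protein that binds AU-rich stretches of mRNAs and shortens their life. The study also describes Zfp36 as a repressor of translation that works through the poly(A)-binding protein Pabpc1. Zfp36 CLIP-seq peaks are deposited for 280 mRNAs, from BMDMs of Zfp36-V5 knock-in mice at 4 hr of LPS. None of the 280 was one of the 10 genes. Such mRNAs are few beside the 6397 genes with values, so 0 of 10 says little about Zfp36 binding to these genes. Among the genes of the other pathway lists, Txnip carried a peak, at chr3:96558951-96559000 of mm10, with a deposited fold value of 7.86. The study kept mRNAs with peaks in both CLIP-seq experiments, and the deposited table gives the peak without separate values for the replicates.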

How the data were processed

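The authors trimmed RNA-seq and Ribo-seq reads of BMDMs (FASTX-Toolkit) and discarded rRNA, tRNA and mitochondrial reads (Bowtie). They mapped the rest to mm10 (TopHat, RefSeq annotation), counted them per gene (HTSeq) and deposited RPKM values. Since these values are not counts, no count test was run. CLIP-seq peaks were made by the authors with STAR, Piranha and HOMER. Their own p-values and a table of their differential genes with clusters were not used.

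With limma 3.58.1 (R 4.3.3), models with a trend of variance on level were fitted to log2(RPKM + 1) over the 10 libraries of an assay, for genes with a mean of at least 10 RPKM (in both assays for TE, taken per culture). The members and gene lists were chosen with earlier results of these data known. From each other list the genes called in RNA at 6 hr with the largest changes were named, up to 4, plus isozymes of the members, and for Slc2a1, Pfkfb3 and Hk3 the 3 genes of highest correlation.

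Ribo-seq depth was read from the steps of low RPKM values, of which 78.2% to 89.5% per library were whole reads within 0.06. Alternatives were other added values (0.1 and 5), no filter or a stricter one (10 RPKM in every library), median centring, a replicate block, no trend, weighted libraries, a joint model of both assays and leaving out each library. The scripts were tested on simulated data. Python 3.11.15, numpy 2.4.6, pandas 2.3.3 and matplotlib 3.10.9 were used for the rest.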

Additional observations from a re-analysis of the deposited data

How the results depend on the processing

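Slc2a1, Hk2, Hk3, Pfkfb3 and Pfkl kept their RNA calls at 6 hr in every alternative in which they were tested, each of the 10 libraries left out included. Requiring 10 RPKM in every library removes Hk2 and Pfkfb3 from the RNA test, so that 1, 1, 3 and 3 members were called higher in RNA at 1, 2, 4 and 6 hr and 1 lower at 2 hr. In RPFs this filter gave 2 lower calls at 4 hr. With median centring, the median change of all genes in RNA at 6 hr moved from -0.41 to -0.19 (RPFs from -0.66 to -0.15), 1 member was called lower in RNA at 2 hr, and 0 were called lower in RPFs at 2, 4 and 6 hr (limma); Pkm RPFs at 6 hr reversed to 0.002591. Without a trend 0 members were higher in RPFs at 1 hr and 0 lower at 2, 4 and 6 hr, and Ldha RNA at 2 hr was called lower (limma adjusted p = 0.0499), as it was with no filter (0.0485), so that 3 were lower. Library weights gave 1 lower call in RNA at 2 hr, 0 higher calls in RPFs at 1 hr and 2 lower ones at 4 hr. Leaving out 1 h replicate B and 6 h replicate A together, chosen after the data were seen, gave 4 lower calls in RNA at 2 hr, 1 lower at 6 hr, and in RPFs 2 higher at 1 hr and 2 lower at 4 hr. The cause of these shifts was not tested.

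Leaving out 1 library in turn, higher calls in RNA were 3 to 3, 3 to 3, 5 to 5 and 5 to 5 at 1, 2, 4 and 6 hr, and lower calls 0 to 2, 0 to 5, 0 to 0 and 0 to 1. In RPFs higher calls were 0 to 2, 2 to 3, 3 to 4 and 4 to 5, and lower calls 0 to 2, 0 to 1, 0 to 2 and 0 to 2. TE calls were 0 throughout. A lone replicate was assumed to vary like the other groups.

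The replicate letters were not taken as pairs: across times, differences between A and B correlated at 0.09 to 0.54 in RNA (9 of 10 pairs over 0.1) and at -0.02 to 0.02 in RPFs. With a replicate block, lower calls in RNA were 3 at 1 hr, 5 at 2 hr and 2 at 6 hr, with the same changes: Pgk1, Pkm and Ldha were called at 1 hr, Gapdh, Pgk1 and Ldha beside Aldoa and Pkm at 2 hr, and Aldoa and Pkm at 6 hr. The block changed no other member's call. Ribo-seq replicate A at 6 hr, with 550000 reads, limits the precision of low footprint values.

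Over all genes, RNA calls lower at 1 hr went from 438 to 846 with the replicate block, 780 with no filter, 288 with centring and 108 with 1 h replicate B and 6 h replicate A both left out. With 10 RPKM in every library, which tests fewer genes, RNA calls were 208 higher and 222 lower at 1 hr (from 371 and 438), 470 and 1134 at 2 hr (from 752 and 1813) and 1642 lower at 4 hr (from 2483), and RPF calls 102 higher at 1 hr (from 155), 408 higher at 4 hr (from 617) and 1213 lower at 6 hr (from 1902). RPF calls lower at 1 hr went from 17 to 10 with centring and 8 with weights, those at 4 hr from 1241 to 2080 with weights, and those at 2 hr from 256 to 533 with those libraries left out.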
